A study of Nomascus leucogenys with 9 samples.

Results

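Expression of 32 genes of the unfolded protein response and the integrated stress response was followed across 9 lymphoblastoid cell lines of the gibbon Nomascus leucogenys. The genes were chosen by name, through the human Ensembl identifiers that label the rows of the deposited table, and the rule uses no measured value, although earlier results of these data were known when it was made. Of the 32 identifiers, 31 had a row among the 15356 of the table. The identifier of P4HB (protein disulfide isomerase, ENSG00000185624) matched no row, and P4HB was not analysed here. All 31 rows passed the filter on low values, a mean of at least 1 part per 1000000 (ppm) of the summed linear values of a line, which kept 12590 rows in all.

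Each line is a culture of B lymphocytes immortalised with Epstein-Barr virus, and each came from a different animal. The lines share 1 label and carry no treatment, so they form 1 group of 9 samples with no control group. The series concerns LAVA, a retrotransposon of gibbons, and the labels do not single out the stress response genes. Line 1 came from the animal Asia, line 2 from Bobby, line 3 from China, line 4 from Khao and line 5 from Melouprey. Nancy gave line 6, Phyllis line 7, Ricky line 8 and Vok line 9. With 1 culture per animal, the animal, the culture and its transformation by the virus cannot be told apart. In bulk RNA, fewer cells of a type and less RNA per cell cannot be told apart either.

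The unfolded protein response is set off when unfolded proteins collect in the endoplasmic reticulum (ER). The membrane sensors IRE1 (encoded by ERN1), PERK (EIF2AK3) and ATF6 then raise the production of chaperones, folding enzymes and the machinery of ER-associated degradation (ERAD), which returns misfolded proteins to the cytosol for destruction. PERK also belongs to the integrated stress response, in which phosphorylation of eIF2 slows general translation while the transcription factor ATF4 is made and switches on genes of amino acid supply and of feedback. In the B lineage this system expands as cells turn into antibody-secreting plasma cells, and the IRE1 product XBP1 is needed for that step.

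Values are as deposited and were treated as log2 units, since their log base is not given. On that reading a fold between lines is 2 raised to a difference of log2 units. The number of reads behind each value is unknown, so no counting interval could be given. Levels were not divided by transcript length and are therefore compared between lines, not between genes. Of the B cell markers reported here, 6 passed the filter. Of the T and NK markers, CD3E was below the filter, whereas CD3D stood between 4.72 and 6.60 and CD3G between 4.70 and 7.26. CD2 stood between 7.22 and 10.18, NKG7 between 6.77 and 7.94, and GNLY between 4.69 and 8.27. Of 5 myeloid markers only CSF1R had a row, at 4.03 to 5.71, and of 4 stromal markers COL1A1 and PDGFRB had one.

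The stress response genes varied between lines about as much as other genes did. Their median SD over the 9 lines was 0.22 log2 units, the same as the 0.22 of all kept rows, and the median ratio of the highest line to the lowest was 1.65-fold against 1.60-fold. HSPA5, DNAJB9, CREB3L2 and ATF3 spanned 2-fold or more, which is 4 of the 31 genes (12.9%) against 26.4% of all kept rows. Of the 15 members at or above 100 ppm, 1 (HSPA5) spanned 2-fold, against 18.5% of all rows at that level. In 0 members did a single line stand apart from the rest by Dixon's gap criterion, against 10.1% of all kept rows. That contrast went when 1 of the low lines was left out: 3 members (9.68%) had such a line without line 1, against 9.23% of all kept rows, and 4 (12.9%) without line 3, against 11.01%. After Benjamini-Hochberg adjustment limma's variance test called 0 of the 31 and 0% of all rows, and the smallest adjusted p of a member was 0.904. At an unadjusted p under 0.05 it listed 0 members, against 5.23% of all rows. The prior of that test had 2.75 degrees of freedom, so a count of 0 does not show that the genes were alike between lines.

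**Figure D1:**
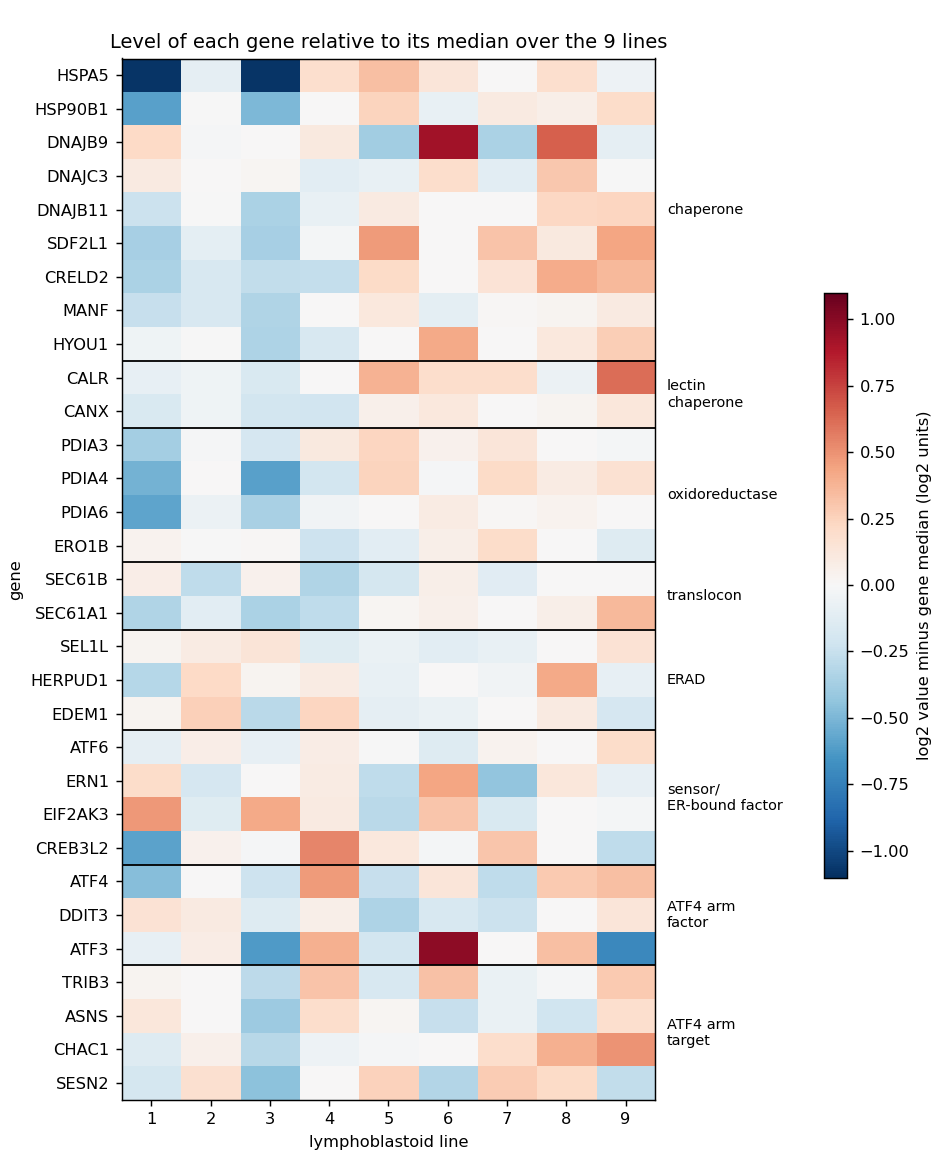
Colour gives the log2 value of each of the 31 genes (rows, grouped by role) in each of the 9 lines (columns) minus the median of that gene over the lines. The blue cells in columns 1 and 3 of the upper part are the chaperones and folding enzymes that were lowest in lines 1 and 3, with HSPA5 the deepest, and the darkest red cells, in column 6, are DNAJB9 and ATF3.

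What set the chaperones and folding enzymes apart was which lines were low. In 10 of the 15 folding genes measured (66.7%), lines 1 and 3 were the lowest pair of lines, and the same was true of 2 of the other 16 members, SEC61A1 and CHAC1. Together these were 12 of 31 members (38.7%), against 6.44% of all kept rows. Among genes at or above 100 ppm, where most folding genes lie, the count was 7 of 15 members (46.7%) against 7.52% of all rows. This way of counting followed from a look at the values and has no test. Other genes were low in the same pair of lines, and the reverse order, with lines 1 and 3 the highest pair, was found in 8.74% of all kept rows.

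HSPA5 (ENSG00000044574) encodes BiP, the Hsp70 chaperone of the ER, which binds unfolded proteins and holds the sensors inactive. From line 1 to line 9, in that order, its levels were 11.60, 12.57, 11.59, 12.86, 13.003, 12.81, 12.67, 12.86 and 12.62 log2 units (mean 12.51 ± 0.53, SD, n = 9). Lines 1 and 3 thus lay together at a lower level, and the nearest other line was 0.98 log2 units, or 1.97-fold, above them. The other 7 lines differed among themselves by less than that gap. From the lowest to the highest line HSPA5 spanned 2.66-fold.

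HSP90B1 (ENSG00000166598) encodes GRP94, the Hsp90 chaperone of the ER. It was at 13.33 log2 units in line 1 and 13.44 in line 3, while the remaining 7 lines held 13.85 to 14.18. Its mean over all lines was 13.87 ± 0.29 (SD, n = 9). The gap to the next line was 0.41 log2 units, or 1.33-fold, less than for HSPA5 but on the same side.

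The protein disulfide isomerases form and rearrange the disulfide bonds of secreted proteins, and 3 of them also had lines 1 and 3 as their lowest pair. PDIA4 (ENSG00000155660) was at 11.83 log2 units in line 1 and 11.74 in line 3, with the others from 12.14 to 12.59. PDIA6 (ENSG00000143870) was at 11.95 and 12.17, with the others from 12.47 to 12.62. PDIA3 (ENSG00000167004), which works with the lectin chaperones on glycoproteins, was at 12.63 and 12.81, with the others from 12.98 to 13.24. Genes with that lowest pair have a gap to the next line by definition. It was 0.32 log2 units for PDIA4, 0.30 for PDIA6 and 0.16 for PDIA3.

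Lines 1 and 3 were the lowest pair in several cofactors too. DNAJB11, a J-domain partner of BiP, was at 9.66 log2 units in line 1 and 9.55 in line 3, and from 9.82 to 10.13 elsewhere. SDF2L1, which binds DNAJB11, was 0.26 log2 units lower in both lines than in the next line, with 8.26 to 8.84 elsewhere. MANF, a secreted ER protein induced by stress, was at 9.05 and 8.97, and from 9.12 to 9.41 elsewhere. For CRELD2 (7.90 and 7.97) the next line was 0.012 log2 units higher and for the lectin chaperone CALR (13.48 and 13.41) it was 0.027 higher, so their place among the 10 rests on differences too small to tell the lines apart. The gap was also small for MANF (0.075) and, outside the folding genes, for SEC61A1 (0.050) and CHAC1 (0.085). The error of a single value is unknown.

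**Figure D2:**
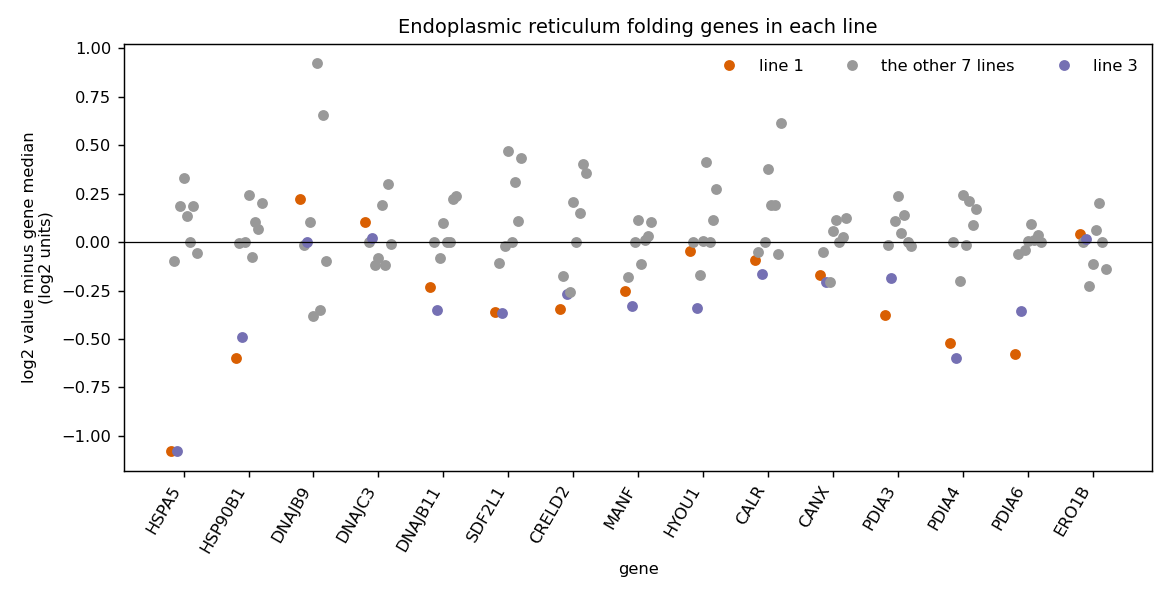
Each point is the log2 value of 1 folding gene in 1 line minus the median of that gene over the 9 lines, with line 1 in orange, line 3 in violet and the other 7 lines in grey. HSPA5 has the widest gap (0.98 log2 units), while in DNAJB9, DNAJC3 and ERO1B lines 1 and 3 lie among or above the others.

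The remaining 5 folding genes did not have lines 1 and 3 as their lowest pair. DNAJB9 (ERdj4, ENSG00000128590) is a J-domain protein that represses IRE1. In order of line number it held 9.93, 9.70, 9.71, 9.82, 9.33, 10.64, 9.36, 10.37 and 9.62 log2 units (mean 9.83 ± 0.43, SD, n = 9). Lines 6 and 8 were its high lines, and lines 5 and 7 were its low ones, although line 5 had the highest HSPA5. DNAJC3 (p58IPK), which restrains PERK and serves BiP, ranged only from 10.98 to 11.40 with a median of 11.10. HYOU1, the exchange factor and Hsp110-like chaperone, ran from 11.74 in line 3 to 12.49 in line 6 with a median of 12.08. CANX (calnexin) stayed within 13.60 to 13.94, and ERO1B, which reoxidises the disulfide isomerases, within 10.02 to 10.44.

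Summed in linear values, the 15 folding genes made up 4452 ppm of the total in line 3 and 4460 ppm in line 1. Lines 2 and 4 came next with 5486 and 5487 ppm, followed by lines 8, 7 and 6 with 5854, 5988 and 6056 ppm. Lines 5 and 9 stood at the top with 6476 and 6578 ppm. The highest line thus held 1.48 times the sum of the lowest. The median deviation of these genes from their own medians was -0.25 log2 units in line 1 and -0.33 in line 3, whereas over all kept rows the median deviation was 0.025 in line 1 and 0 in line 3.

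Markers of plasma cells, which carry an enlarged ER, were low in the same lines. In 5 of the 7 markers measured (SDC1, PRDM1, JCHAIN, MZB1 and CD38) lines 1 and 3 were the lowest pair, against 6.44% of all kept rows. TNFRSF17 was lowest in line 1 (9.43 log2 units) but stood at 10.10 in line 3, above its median of 9.89. IRF4 went the other way, with 14.72 in line 1 and 14.69 in line 3, below line 7 (14.99) alone. The summed level of the 7 ran from 4183 ppm in line 3 and 4882 ppm in line 1 to 6645 ppm in line 7, with a median of 5880. Most of that sum came from JCHAIN (mean 3688 ppm) and IRF4 (mean 1769 ppm). SDC1 (CD138) was at 7.05 log2 units in line 1 and 7.58 in line 3, and reached 9.45 in line 5. The summed B cell markers ran from 714 ppm in line 1 to 1151 ppm in line 9, with line 3 at the median of 913. Lines 5 and 6 were near line 1, at 714.7 and 734.8 ppm. Of the 6 B cell markers above the filter, lines 1 and 3 were the lowest pair in 1 (CR2) and the highest pair in 1 (CD79B). The 5 T and NK markers above the filter summed to between 36.5 ppm in line 1 and 106.3 ppm in line 7. CD2 had the highest mean of the 5 (61.2 ppm) and was lowest in line 1. The other T and NK markers were not lowest there: NKG7 was highest in line 1, CD3D and CD3G were lowest in line 6, and GNLY was lowest in line 9. The part of these marker levels in the chaperone differences was not tested.

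**Figure D3:**
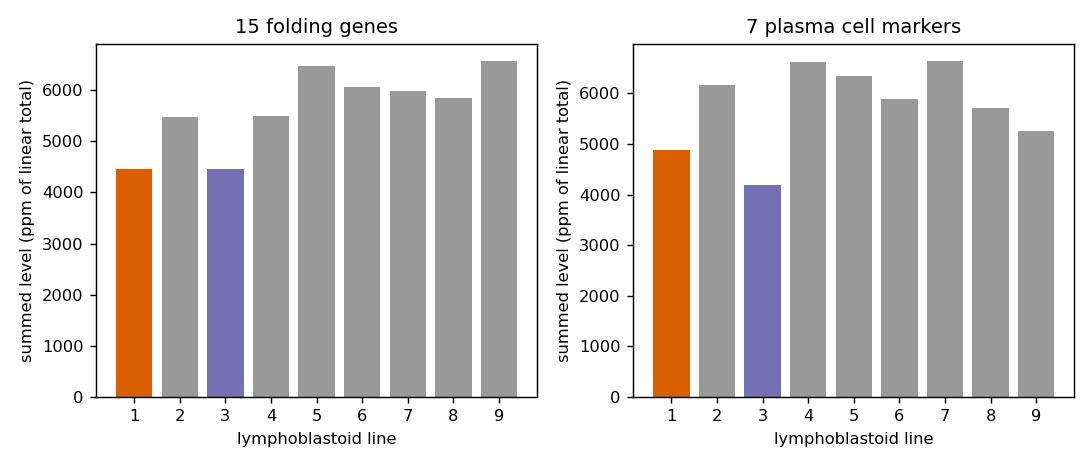
Bars give the summed level, in ppm of the linear total, of the 15 folding genes (left) and of 7 plasma cell markers (right) in each of the 9 lines, with lines 1 and 3 coloured. Both sums are lowest in lines 1 and 3, at 4460 and 4452 ppm on the left and 4882 and 4183 ppm on the right. JCHAIN and IRF4 make up most of the sum on the right.

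Whether other genes followed HSPA5 across the 9 lines was tested over the whole table. After Benjamini-Hochberg adjustment an exact permutation test of Pearson's r called 0 of 12589 rows (0%). Among the 30 other members its smallest adjusted p was 0.25. At an unadjusted p under 0.05 it listed 8 members (26.7%), against 15.4% of all rows. Of these, 7 were positive (HSP90B1, DNAJB11, PDIA3, PDIA4, PDIA6, SDF2L1 and MANF), or 23.3% against 5.94% of all rows, and EIF2AK3 was negative, where 9.51% of all rows were. Spearman's rho with the exact permutation test also called 0 rows, and limma's slope on HSPA5 called 50 rows, none of them a member.

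HSPA5 had 2 separate levels, so no r over all 9 lines is given. Within the 7 lines other than 1 and 3, 0 of the 30 members passed an unadjusted p of 0.05, against 1.79% of all rows, and the median r of the 30 members with HSPA5 was -0.014. None of the 8 members listed over 9 lines was listed without lines 1 and 3. Those were the lines farthest from the median of HSPA5. Without them HSPA5 ran only from 12.57 to 13.003 log2 units, against 11.59 to 13.003 over all 9. The share of all rows listed fell too, from 15.4% to 1.79%. With fewer lines and little spread left in HSPA5, this fit cannot show whether the members follow it. PDIA3 had the highest r within the 7 lines, 0.67 (exact permutation p = 0.099, adjusted 0.9997 over all rows; rho = 0.64, exact permutation p = 0.14, adjusted 1). For PDIA6 r was 0.33 (exact permutation p = 0.47) and for HSP90B1 it was 0.19 (exact permutation p = 0.67).

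As a description of how the folding genes moved with each other, the mean r over all pairs of the 15 was 0.45 across the 9 lines and 0.25 across the 7 lines without 1 and 3. Over all pairs of the 12590 kept rows it was 0.0082 and 0.0035. All pairs share the same libraries.

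The translocon, the channel through which new proteins enter the ER, was represented by a pair of subunits that differed in their order of lines. The pore subunit SEC61A1 was lowest in line 3 (11.64 log2 units) and line 1 (11.65), had a median of 11.98 and was highest in line 9 (12.34). The small subunit SEC61B was highest in line 1 (10.981), barely above line 6 (10.974), and lowest in line 4 (10.57). Line 1 was thus near the bottom for SEC61A1 and among the top lines for SEC61B. It was the highest line in 22.6% of all kept rows.

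The 3 ERAD genes had a median range of 1.47-fold, against 1.60-fold for all kept rows. The range was 1.23-fold for SEL1L and 1.65-fold for HERPUD1. SEL1L, the adaptor of the ubiquitin ligase HRD1, ran from 11.94 to 12.24 log2 units. HERPUD1, which recruits that complex and is a marked target of the stress pathways, was lowest in line 1 (10.91) and highest in line 8 (11.63), with a median of 11.22. EDEM1, which hands misfolded glycoproteins to the pathway, was lowest in line 3 (9.68) and highest in line 2 (10.24). None of the 3 had lines 1 and 3 as its lowest pair, an order found in only 6.44% of all kept rows.

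Lines 1 and 3 were the lowest pair in 0 of the 4 sensors and ER-bound factors, against 6.44% of all kept rows. A count of 0 in so few genes does not set them apart from other rows. EIF2AK3 (PERK, ENSG00000172071) was highest in the lines where HSPA5 was lowest, at 10.71 log2 units in line 1 and 10.65 in line 3, followed by 10.54 in line 6. It was lowest at 9.94 in line 5, the line with the highest HSPA5, and its full range was 1.71-fold. It was the only member of the 31 with lines 1 and 3 as its highest pair, an order found in 8.74% of all kept rows. Within the other 7 lines its r with HSPA5 was -0.032 (exact permutation p = 0.95). ERN1 (IRE1) was highest in line 6 (7.56) and line 1 (7.33) and lowest in line 7 (6.69), a 1.82-fold range. ATF6, which is cut in the Golgi to release a transcription factor, was nearly level. It was lowest in line 6 (10.38), followed by lines 1 and 3 (10.42 and 10.44), and highest in line 9 (10.73).

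CREB3L2 (ENSG00000182158) is an ER-bound transcription factor of the ATF6 type. Its levels by line number were 9.60, 10.23, 10.18, 10.72, 10.30, 10.17, 10.49, 10.19 and 9.90 log2 units (mean 10.20 ± 0.32, SD, n = 9). Line 1 was low and line 4 high, a 2.18-fold range, and line 3 lay close to the median. XBP1, which is not among the 32 genes, was lowest in line 5 (11.88) and highest in line 3 (12.44), with 12.23 in line 1. Its total level was therefore not low in lines 1 and 3. The table does not separate its spliced and unspliced forms.

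Of the 7 genes of the ATF4 arm, CHAC1 was the 1 with lines 1 and 3 as its lowest pair. Their summed level was nevertheless lowest in those lines, at 354.7 ppm in line 3 and 373.8 ppm in line 1. Line 7 followed with 410.7 ppm, and the sum reached 566.6 ppm in line 4. ATF4 was the largest part of that sum (mean 253.6 ppm). The 4 targets alone (ASNS, TRIB3, SESN2 and CHAC1) were lowest in line 3, at 115.2 ppm. In line 1 these targets summed to 153.4 ppm, above line 6 (130.9 ppm) and line 8 (150.0 ppm). ATF4 (ENSG00000128272) itself, which is controlled mainly at translation, was lowest in line 1 (11.28 log2 units) and highest in line 4 (12.23), with a median of 11.76 and a 1.92-fold range. ATF3 (ENSG00000162772), a stress-induced transcription factor, had the widest range of all members at 3.23-fold. By line number it held 9.13, 9.30, 8.60, 9.61, 9.02, 10.20, 9.22, 9.55 and 8.51 log2 units (mean 9.24 ± 0.52, SD, n = 9). Line 6 was high, and lines 3 and 9 were low. DDIT3 (CHOP), a factor linked to cell death under lasting stress, was near the filter in every line, at 3.57 to 4.08 log2 units or a mean of 1.05 ppm.

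ASNS (ENSG00000070669) makes asparagine and is a target of ATF4. Taken by line number, its levels were 10.29, 10.16, 9.77, 10.35, 10.18, 9.91, 10.09, 9.94 and 10.35 log2 units (mean 10.12 ± 0.21, SD, n = 9). Its range was 1.50-fold, with line 3 the lowest and line 1 among the higher lines. TRIB3, a pseudokinase that feeds back on ATF4, ran from 6.96 in line 3 to 7.56 in line 6. SESN2, a stress-induced inhibitor of mTORC1, ran from 9.15 in line 3 to 9.88 in line 7. CHAC1, a glutathione-degrading enzyme, ran from 5.57 in line 3 to 6.38 in line 9. Line 3 was thus the lowest line in each of these 4 targets, while line 1 was low in CHAC1 and not in ASNS.

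**Figure D4:**
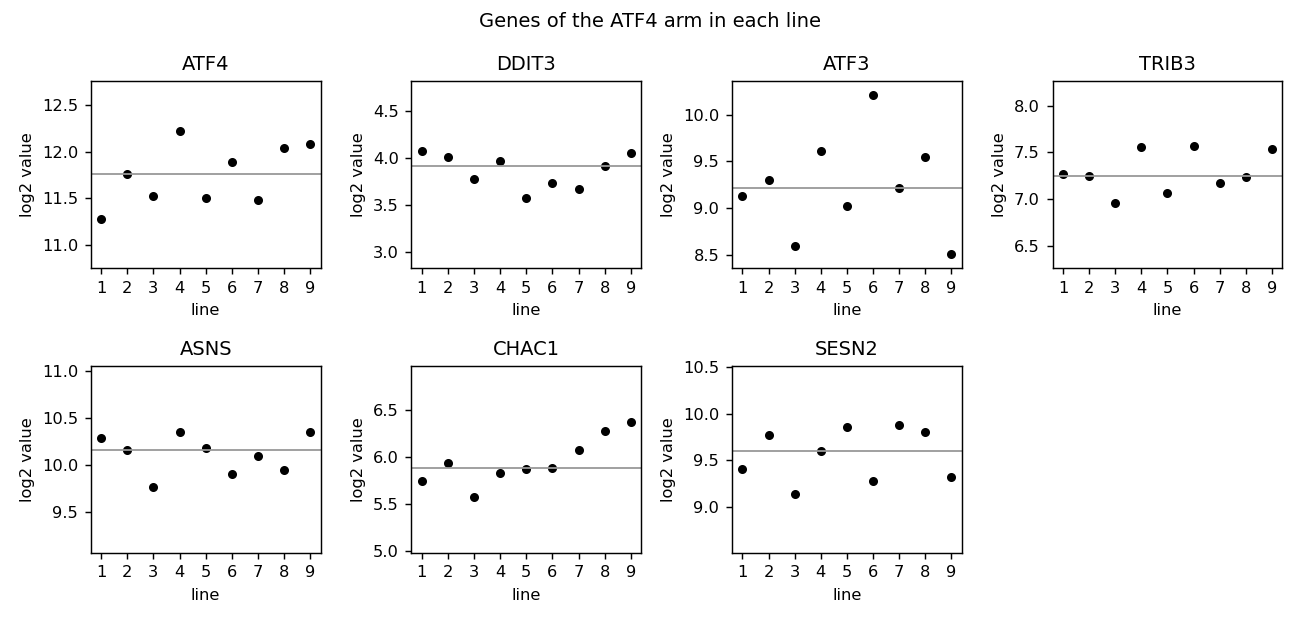
Points give the log2 value of each ATF4 arm gene in each of the 9 lines, the grey line is the median of the gene, and every panel spans the same height in log2 units. ATF3 ranges most widely (8.51 to 10.20), and ASNS, TRIB3, CHAC1 and SESN2 have their lowest point in line 3.

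No row followed ASNS across the lines past the threshold. The exact permutation test of r called 0 of 12589 rows (0%) after Benjamini-Hochberg adjustment, and at an unadjusted p under 0.05 it listed 0 of the 30 other members, against 5.17% of all rows. The limma slope on ASNS also called 0 rows. The highest r among members was that of ATF6, 0.63 (exact permutation p = 0.071, adjusted 0.93; rho = 0.60, exact permutation p = 0.097, adjusted 1). ASNS lay farthest from its median in lines 3 and 6, and r was 0.34 when they were left out. Without lines 1 and 3 the r of ATF6 was instead 0.83 (exact permutation p = 0.014, adjusted 0.71). ATF6 was then the 1 member of 30 under an unadjusted p of 0.05, against 6.15% of all rows. For ATF4 r was 0.18 (exact permutation p = 0.63, adjusted 0.98; rho = 0.25, exact permutation p = 0.52, adjusted 1), and without lines 3 and 6 it was 0.13. For HSPA5 r with ASNS is not given because of its 2 levels, but within the 7 lines other than 1 and 3 it was -0.18 (exact permutation p = 0.68).

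The 31 genes were not lowest evenly across lines. Line 3 was the lowest line in 13 of the 31 and line 1 in 7, against 11.9% and 14.0% of all kept rows. Line 9 was the highest line in 7 of the 31, about the same share as the 21.7% of all kept rows. Lines 5 and 6 were the highest in 6 each, against 8.06% and 10.7%. Line 1 was the highest in 3 of the 31, against 22.6% of all kept rows. Line 3 was the highest in 0 of the 31, against 9.36% of all kept rows. These counts are descriptions, since the genes of a line share a library.

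Other genes of the same pathways, taken from lists of 17 and 19 genes, gave 0 calls with either HSPA5 or ASNS after adjustment. Of 16 further genes of the unfolded protein response with a row, 4 had lines 1 and 3 as their lowest pair (MBTPS2, DERL1, SELENOS and TXNDC5). Of 18 further genes of the integrated stress response with a row, 4 did (ATF5, PHGDH, SLC3A2 and SLC7A5). The same order was found in 6.44% of all kept rows. These 8 genes are named after their values were seen.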

How the data were processed

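RNA-seq libraries of 9 lines were used through 1 table of the whole series. The values deposited by the authors were treated as log2 expression, with the log base, genome build, annotation and normalization not given in the sources used here. Tools named by the submitters' processing notes were Trimmomatic, STAR, edgeR and DESeq2, and neither versions nor roles were stated. The values ran from 0.71 to 18.66 and their linear totals were nearly equal, so the lines were already scaled to each other when deposited and depth is unknown. If that scaling was rank-based or shrank low rows, the differences given here are on that scale. Columns were matched by name, and 0 per-sample columns were left unused.

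Member symbols came with the list of 32 identifiers. Symbols of the 65 genes in 7 further lists were paired with identifiers by hand from general knowledge, without a table to check them against, and 57 had a row. The members and lists were chosen with earlier results of these data known. Every member could be named. Values in every line were given for HSPA5, ASNS and members spanning 2-fold, and of the list genes XBP1 and those past the threshold were to be named. Exact tests used all 362880 orderings of 9 lines (Python 3.11.15, numpy 2.4.6), two-sided, and were tested on simulated data, as was limma 3.58.1 in R 4.3.3. The threshold was an adjusted p of 0.05. Dixon's critical value was 0.493. Nothing says that the 9 libraries came from separate RNA extractions. Other filters, pseudocounts, scalings, tests and omitted lines were tried. No sequences are shown. A result for 1 marker gene is not reported here.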

Additional observations from a re-analysis of the deposited data

How the results depend on the processing

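No member was called with HSPA5 or ASNS, or by the variance test, under any setting run. The rows called with HSPA5 numbered 0 in every setting except limma's slope, which called 50; adding the first principal component of all kept rows to that fit gave 0. The members spanning 2-fold numbered 3 to 4 with 1 line left out. The members with an outlying line numbered 0 to 4 with 1 line left out: 3 without line 1, 4 without line 3 and 1 each without line 5 or line 8, against 0 with all lines. For all kept rows the shares were 9.23% without line 1 and 11.01% without line 3, near the 9.68% and 12.9% of the members. Without line 1 they were HSPA5, HSP90B1 and PDIA6, in which line 3 then stood alone, and without line 3 PDIA3 joined them. The members with lines 1 and 3 as their lowest pair numbered 11 to 12 under the other filters, pseudocount and scaling, which were added after the data were seen, as was the omission of lines 1 and 3 together. Centring moved no line's median by more than 0.012 log2 units. No paired analysis was possible because all 9 lines form a single group. Counting error in low rows such as DDIT3 could not be separated, since the table keeps no depth.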

Other observations

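Of the 18 further genes of the integrated stress response with a row, 7 spanned 2-fold or more, where 26.4% of all kept rows did. ATF5 spanned more than any member. The genes named here were chosen after their values were seen. ATF5, an ATF4-related factor, had the widest range: lines 3 and 1 held 8.07 and 8.18 log2 units, and line 8 reached 10.40. PSAT1, an enzyme of serine synthesis, ran from 8.50 in line 1 to 10.01 in line 7. EIF2AK2 (PKR), the eIF2 kinase that senses double-stranded RNA, spanned 3.01-fold, with line 3 at 9.75 and line 4 at 11.34. PPP1R15A (GADD34), which reverses the phosphorylation of eIF2, was high in line 8 (11.34), line 6 (11.30) and line 4 (11.23) and low in line 9 (10.10), line 5 (10.18) and line 7 (10.20). In the unfolded protein response list, 1 of 16 genes with a row (ERO1A) spanned 2-fold, again against 26.4% of all kept rows. ERO1A ran from 10.59 in line 1 to 11.90 in line 8, whereas its relative ERO1B spanned 1.35-fold.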
